A study of Homo sapiens with 10 samples.

Results

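The T-box factors followed here were 10 genes, T (brachyury), EOMES, TBX1, TBX2, TBX3, TBX4, TBX5, TBX6, TBX18 and TBX20. They were taken by name from 4 deposited tables on the assembled autosomes and X, and all 10 were found once in each table, among 22848 gene symbols common to the 4 tables. Poly-A RNA was sequenced from the human embryonic stem cell line WA09 (hESC) and from 4 cell types derived from it, 2 libraries for each of the 5 and 10 in all. The labels do not say whether the 2 libraries came from separate cultures, and a single line at passages 52 to 58 was used. Definitive endoderm (DE) received 100 ng/mL activin A and 8 ng/mL FGF over 4 days, plus 25 ng/mL Wnt-3a during day 1 alone. Splanchnic mesoderm (MESO) received the factors of the hESC medium over 4 days, to which 100 ng/mL BMP-4 and 25 ng/mL Wnt-3a were added. Neural progenitors (NPC) were kept 6 days without FGF or activin, in IGF-I and heregulin, while SB431542 blocked activin receptors and LDN (500 nM) blocked BMP receptors. Pre-neural crest cells (NCSC) were kept 6 days in FGF, IGF-I and heregulin with SB431542 and the GSK3 inhibitor BIO. The hESC were kept 4 days in activin A and heregulin at 10 ng/mL each, IGF-I at 200 ng/mL and FGF at 8 ng/mL. Cells were seeded at 50000 per cm2 for hESC, DE and MESO and at 90000 per cm2 for NPC and NCSC. Against hESC, NPC and NCSC thus differed in density and days as well as in factors, and these cannot be told apart.

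T-box genes encode transcription factors that share a DNA-binding domain, the T-box, and bind variants of the same short DNA element. Brachyury and EOMES mark the primitive streak of the gastrulating embryo, where NODAL and WNT signals induce them. EOMES acts in definitive endoderm and early cardiac mesoderm, and T and TBX6 in the posterior and paraxial mesoderm. TBX2, TBX3, TBX4, TBX5, TBX18 and TBX20 act later in heart, limb and lateral mesoderm, with BMP signals among the inducers of TBX2, TBX3 and TBX20, and TBX1 acts in pharyngeal endoderm and mesoderm.

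Levels are FPKM (sequenced fragments per transcript length and per library size), 1 value per cell type and table, so the authors had combined the libraries and no spread between them can be given. Changes are differences of log2(FPKM + 1), derivative minus hESC of the same table, which understate the change of low genes. The words rose and fell refer to the authors' q-value below 0.05 in the table of that derivative. Read depth is unknown. In bulk RNA, fewer cells expressing a gene and less RNA per cell cannot be told apart. The 4 tables each carry their own hESC column made from the same labelled cells, and whether they share a scale is not given, so levels set side by side across tables are a description.

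The labels were checked against marker genes. In DE 4 of 5 endoderm markers rose (SOX17, CXCR4, GATA6 and CER1, the last in a locus merged with ZDHHC21) and FOXA2 stood at 35.2 FPKM against 1.27 in hESC (q = 0.0545 in the authors' deposited table). In MESO 5 of 6 splanchnic markers rose, and HAND2 was 20.6 against 0.0274 in hESC without passing. In NPC 4 of 5 neural markers rose. In NCSC 3 of 5 tested crest and border markers rose (PAX3, SNAI2 and SOX9), SOX10 was 2.91 FPKM in NCSC and 2.57 in hESC without passing, and FOXD3 fell and was listed at 0. The crest and border list did not set NCSC apart. In NPC 4 of 6 tested rose and none fell, and in MESO 4 of 6 rose and 1 fell. Of 2 tested neural markers 1, SOX1, also rose in NCSC. Of 5 hESC markers none passed in DE, with a median change of -1.95. POU5F1 was 29.7 FPKM in DE against 232 in hESC, and LIN28A 260 against 406. All 5 fell in MESO, 4 fell and SOX2 rose in NPC, and 3 fell in NCSC. A listed 0 is not read as absence here, because RAE1, an mRNA export factor in general use, was listed at 0 in the hESC column of the DE table and at 27.0 to 30.6 FPKM in the other 3 hESC columns.

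By the tables' hg19 coordinates EOMES spans chr3:27757885-27763785, TBX1 chr22:19744225-19771112 and TBX20, in the MESO table, chr7:35237091-35293711. T spans chr6:166571145-166582157 in the NPC and NCSC tables, chr6:166571145-166584605 in DE and chr6:166571033-166584361 in MESO, so its FPKM was not computed over the same span everywhere, and the spans of TBX2, TBX3, TBX6 and TBX20 also differed between tables. TBX2 and TBX4 are neighbours on chromosome 17, 46.978 kb apart with 1 locus, C17orf82, between them. TBX3 and TBX5 are neighbours on chromosome 12, 257.42 kb apart with no locus of the tables between them. TBX6 lies within 410 bases of PPP4C on one side and within 398 bases of YPEL3 on the other. The antisense transcript TBX5-AS1 overlaps TBX5, and its reads cannot be told from those of TBX5 because the use of strand is not given.

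Promoter windows were available in RefSeq (GRCh38.p14) for 8 of the 10 genes, under the symbol TBXT for T, in 10 windows of 300 bases that run from 250 bases before the transcript start to 50 after it. Those of the called genes with an entry are shown because these are the genes whose transcript level passed the authors' test, with T shown at both of its annotated starts. All windows were searched on both strands for 4 short motifs. GGTGTG is the core of the T-box element, and TCAAAG that of the element bound by the TCF and LEF factors of WNT signalling. GGCGCC is a GC-rich element bound by SMAD factors in BMP signalling. AGATAA is bound by factors of the family of GATA4. Matches are in capitals, and no matches overlapped.
EOMES, chr3:27722274-27722573, minus strand: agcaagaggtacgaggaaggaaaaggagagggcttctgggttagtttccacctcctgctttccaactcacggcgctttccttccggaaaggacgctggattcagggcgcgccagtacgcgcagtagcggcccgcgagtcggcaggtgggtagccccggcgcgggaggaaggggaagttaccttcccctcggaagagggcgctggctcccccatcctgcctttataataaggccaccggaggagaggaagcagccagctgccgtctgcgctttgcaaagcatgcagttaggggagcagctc
T, upstream start, chr6:166168606-166168905, minus strand: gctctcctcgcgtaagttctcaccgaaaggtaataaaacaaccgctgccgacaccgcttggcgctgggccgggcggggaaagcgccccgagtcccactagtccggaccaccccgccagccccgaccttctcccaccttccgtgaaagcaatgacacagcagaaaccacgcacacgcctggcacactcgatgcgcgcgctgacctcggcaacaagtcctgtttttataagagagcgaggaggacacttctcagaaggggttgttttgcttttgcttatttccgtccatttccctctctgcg
T, downstream start, chr6:166167802-166168101, minus strand: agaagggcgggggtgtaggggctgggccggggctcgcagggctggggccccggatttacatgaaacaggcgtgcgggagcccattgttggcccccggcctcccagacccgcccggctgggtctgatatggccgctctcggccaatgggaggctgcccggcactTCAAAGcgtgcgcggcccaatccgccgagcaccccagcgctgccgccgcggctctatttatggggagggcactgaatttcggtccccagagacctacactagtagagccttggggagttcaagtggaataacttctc
TBX1, chr22:19756453-19756752, plus strand: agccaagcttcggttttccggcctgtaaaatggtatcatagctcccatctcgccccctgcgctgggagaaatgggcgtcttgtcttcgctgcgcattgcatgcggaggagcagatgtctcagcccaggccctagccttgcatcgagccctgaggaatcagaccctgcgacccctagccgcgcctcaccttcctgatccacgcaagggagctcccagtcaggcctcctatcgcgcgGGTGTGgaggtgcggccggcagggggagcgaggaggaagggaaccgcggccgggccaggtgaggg
TBX20, chr7:35254051-35254350, minus strand: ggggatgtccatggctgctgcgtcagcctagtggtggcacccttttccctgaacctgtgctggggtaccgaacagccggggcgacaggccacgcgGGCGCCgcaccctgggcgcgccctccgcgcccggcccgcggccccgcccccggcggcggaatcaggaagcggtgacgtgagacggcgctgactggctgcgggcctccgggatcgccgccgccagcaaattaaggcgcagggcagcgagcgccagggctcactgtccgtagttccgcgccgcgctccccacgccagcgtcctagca
The downstream T window held 1 TCF/LEF core, beginning 87 bases before the start, and 12.9% of the 35116 windows of the table held that core. The TBX1 window held 1 T-box core, 15 bases before the start, as did 16.8% of all windows, and the TBX4 window, not printed, held 1 near its far end. The TBX20 window held 1 GGCGCC, 155 bases before the start, as did 19.2% of all windows, and so did the TBX18 window and one of the TBX5 windows. AGATAA, present in 10.3% of all windows, was in none of the 10, and the EOMES window held none of the 4 motifs. The TBX20 window held 38 CG pairs, more than 90.1% of all windows, and the EOMES window 21, more than 60.5%. A match describes the letters only and is not shown to be a binding site.

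In undifferentiated cells the family was low. Over the 4 hESC columns TBX1 ranged from 3.07 to 5.44 FPKM and TBX6 from 2.53 to 3.69, and these were the highest of the 10. EOMES ranged from 0.943 to 1.85 FPKM, T from 0.570 to 0.979 and TBX3 from 0.354 to 0.474. TBX20 lay between 0.109 and 0.197 FPKM, TBX2, TBX4 and TBX18 were below 0.03 in every column, and TBX5 was listed at 0 in all 4. The hESC column of the DE table was the odd one for several members. Beside the mean of the other 3 columns its level was 1.90 times as high for EOMES, 1.67 times for T and 0.594 times for TBX1.

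**Figure D1:**
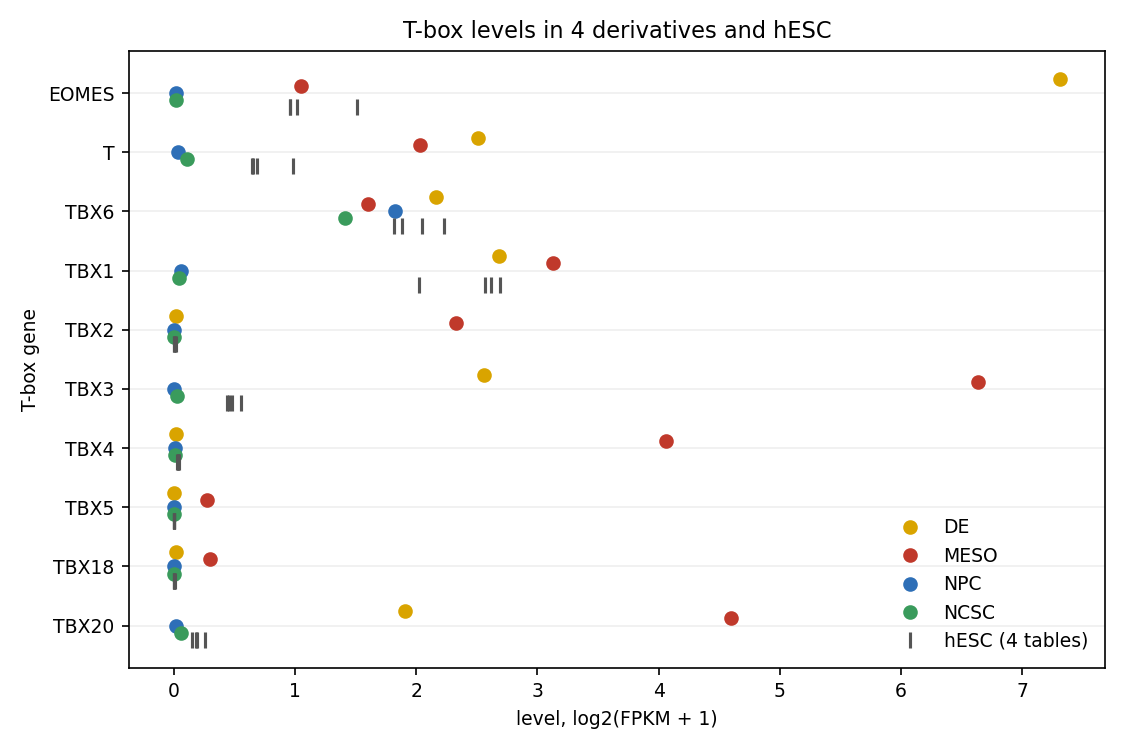
Level of each T-box gene on the log2(FPKM + 1) scale, with filled circles for the 4 derivatives and grey ticks for the hESC columns of the 4 tables, 1 value per cell type and table. EOMES stands far right in DE at 158 FPKM, TBX3 in MESO at 98.2 FPKM, and NPC and NCSC lie at the left edge for every gene but TBX6.

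In DE, the cells given activin A at 100 ng/mL, EOMES was the T-box gene that rose. It stood at 158 FPKM in DE against 1.85 in hESC, 85.4 times as high, a log2(FPKM + 1) change of 5.80 (q = 0.0186 in the authors' deposited table, the lowest q of that table). Its DE level was above 98.0% of loci in that column. EOMES was thus 1 of 6 tested members that rose, 0 fell and 5 missed the threshold, and 4 were not tested by the authors. Among all tested loci of that comparison, 0.406% rose and 0.0203% fell, 0.427% in all, so few genes of any kind were called there. With adjusted normal p-values from the statistic the share was 1.23% of the 14656 tested loci that had one, and EOMES was again the only member called.

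Brachyury, the other streak factor, was 4.69 FPKM in DE and 0.979 in hESC, a change of 1.52, with p = 0.0450 and q = 0.838 in the authors' deposited table. TBX3 was 4.90 FPKM in DE and 0.474 in hESC, 10.3 times as high (q = 0.351 in the authors' deposited table). TBX20, a cardiac factor, was 2.75 FPKM in DE and 0.109 in hESC, a change of 1.76 (q = 0.327 in the authors' deposited table). These 3 DE levels lay above all 4 hESC columns but were not called. TBX1 was 5.43 FPKM in DE, inside the range of its hESC columns, and TBX6 was 3.47 in DE against 3.69 in hESC of that table. TBX2 (0.0119 FPKM), TBX4 (0.0141) and TBX18 (0.0164) stayed near 0 in DE, and TBX5 was listed at 0. The median change was 0.33 over all 10 members, tested or not, 1.64 over the 6 tested and 0.04 over all tested loci.

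In MESO, the cells given BMP-4 and Wnt-3a, TBX3 and TBX20 rose. TBX3, a repressor active in the heart's conduction system and limb, stood at 98.2 FPKM in MESO against 0.354 in hESC, 277 times as high, a change of 6.19 (q = 0.000868 in the authors' deposited table). TBX20 stood at 23.2 FPKM in MESO against 0.197 in hESC, 118 times as high, a change of 4.34 with the same q, the lowest of that table. The 2 MESO levels were above 96.5% and 82.4% of loci in the column. Among the 8 members tested 2 thus rose and 0 fell, 6 missed the threshold, and TBX5 and TBX18 were not tested. Among all tested loci of that comparison, 9.05% rose and 5.38% fell, 14.4% in all.

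TBX4 and TBX2, which sit side by side on chromosome 17, were higher in MESO from almost nothing in hESC but did not pass. TBX4, a hindlimb and lung mesoderm factor, was 15.7 FPKM in MESO and 0.0228 in hESC, a change of 4.03 (statistic 4.50, p = 0.0727, q = 0.289 in the authors' deposited table). TBX2, a repressor closely related to TBX3, was 4.03 FPKM in MESO and 0.00835 in hESC, a change of 2.32 (statistic 3.15, p = 0.0178, q = 0.101 in the authors' deposited table). In each of the other derivatives TBX2 and TBX4 were at or below 0.0141 FPKM. C17orf82, the locus between them, was 0.300 FPKM in MESO and 0.0493 in hESC and was not tested. BCAS3, next to TBX2 on the other side, was 6.67 FPKM in MESO and 5.18 in hESC (q = 0.738 in the authors' deposited table). NACA2, beyond TBX4, was 61.6 FPKM in MESO and 56.9 in hESC (q = 0.936 in the authors' deposited table).

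The calls for TBX2 and TBX4 depended on which deposited value was read. Of 128 tested loci in the MESO table with a statistic within 0.25 of that of TBX4 in size, 12 were not called, and their median p was 5e-05. Of 348 loci within 0.25 of the statistic of TBX2, 44 were not called. Both sets of loci include the T-box gene itself. Normal p-values were also computed from the authors' statistic and adjusted over the 14629 tested loci that had one. TBX2, TBX3, TBX4 and TBX20 were then called in MESO, 4 members in place of 2, while the share of those loci called was 7.93%. TBX2 and TBX4 both had a hESC level near 0. In the MESO table, of 42 tested loci with a hESC level above 0 and below 0.05 FPKM and at least 4 FPKM in MESO, 7 rose. Of 139 loci with a hESC level from 0.1 to below 0.5 FPKM and at least 4 FPKM in MESO, 126 rose. These limits were chosen after the values were seen, and they leave out loci listed at 0 in hESC. TBX2 and TBX4 are themselves among the 42, and TBX3 and TBX20 among the 139, so the counts are a description only. Why TBX2 and TBX4 were not called was not tested.

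**Figure D2:**
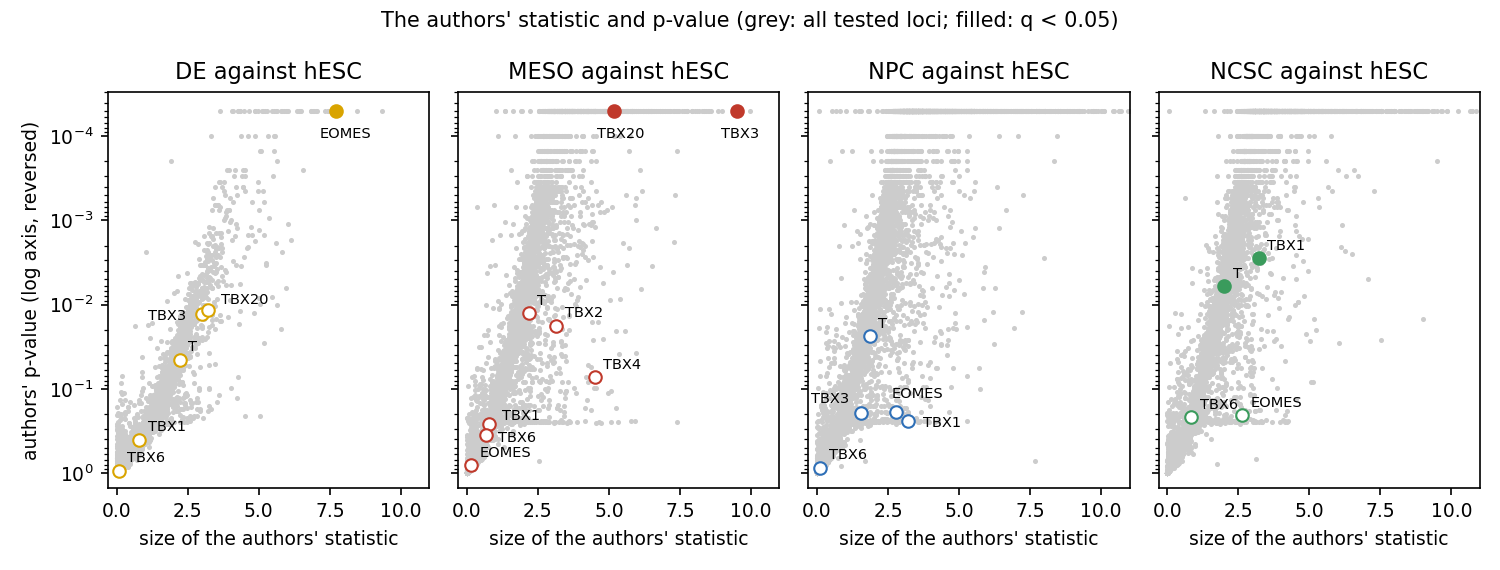
Size of the authors' test statistic (x axis) against the authors' p-value (reversed log y axis) for all tested loci in grey and the tested T-box genes as circles, filled where q is below 0.05, 1 panel per derivative. The x axis ends at 11, which leaves out 14 loci in NPC and 12 in NCSC. TBX4 in MESO, at a statistic of 4.50, and TBX1 in NPC, at -3.20, lie below most loci with a statistic of like size.

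TBX5, the partner of TBX3 on chromosome 12 and a factor of the left ventricle and forelimb, stayed low where its neighbour was high. It was 0.214 FPKM in MESO and listed at 0 in hESC, against 98.2 FPKM for TBX3 in the same MESO column. TBX18, a factor of the epicardium and sinus node, was 0.232 FPKM in MESO and 0.00404 in hESC. Neither was tested by the authors. MED13L, the next locus beyond TBX3, was 21.6 FPKM in MESO and 12.0 in hESC (q = 0.163 in the authors' deposited table).

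The streak and paraxial members did not pass in MESO. T was 3.09 FPKM in MESO and 0.579 in hESC, a change of 1.37 (p = 0.0126, q = 0.0761 in the authors' deposited table). EOMES was 1.07 FPKM in MESO and 0.943 in hESC, inside the range of the hESC columns, and its change of 0.09 turned to -0.13 against the hESC values of the other 3 tables. TBX6 was 2.04 FPKM in MESO and 3.13 in hESC, a change of -0.44 (q = 0.658 in the authors' deposited table). TBX1 was 7.75 FPKM in MESO and 4.92 in hESC, a change of 0.56 (q = 0.558 in the authors' deposited table). The median change was 0.97 over all 10 members, 1.85 over the 8 tested and 0.06 over all tested loci.

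Some markers of other tissues were high in the same MESO column. Of 10 amnion and trophoblast markers 7 rose and none fell, and their summed level was 1869 FPKM in MESO against 24.7 in hESC, with none of the 10 at 0. HAND1, at 758 FPKM in MESO and 1.27 in hESC, belongs to both the amnion and the splanchnic list. CGA, a subunit of chorionic gonadotropin, was 95.3 FPKM in MESO and listed at 0 in hESC, while CGB5 was 1.29 in MESO and 0.126 in hESC. Of 6 endothelial and blood markers, 3 of them tested, 2 rose (RUNX1 and KDR). The list summed to 65.5 FPKM in MESO against 6.98 in hESC, and KDR alone was 55.9 in MESO and 6.75 in hESC. In MESO RUNX1 was 8.41 FPKM, CDH5 0.833, TAL1 0.258 and PECAM1 0.0701, and GATA1 was at 0. Of 8 crest and border markers 4 rose and SOX10 fell, with a summed level of 154 FPKM in MESO against 16.1 in hESC. Whether cells of these tissues were present, and their part in the levels of TBX3, TBX20, TBX2 and TBX4, was not tested. In DE no amnion marker rose, and the list summed to 10.2 FPKM in DE against 24.8 in hESC.

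**Figure D3:**
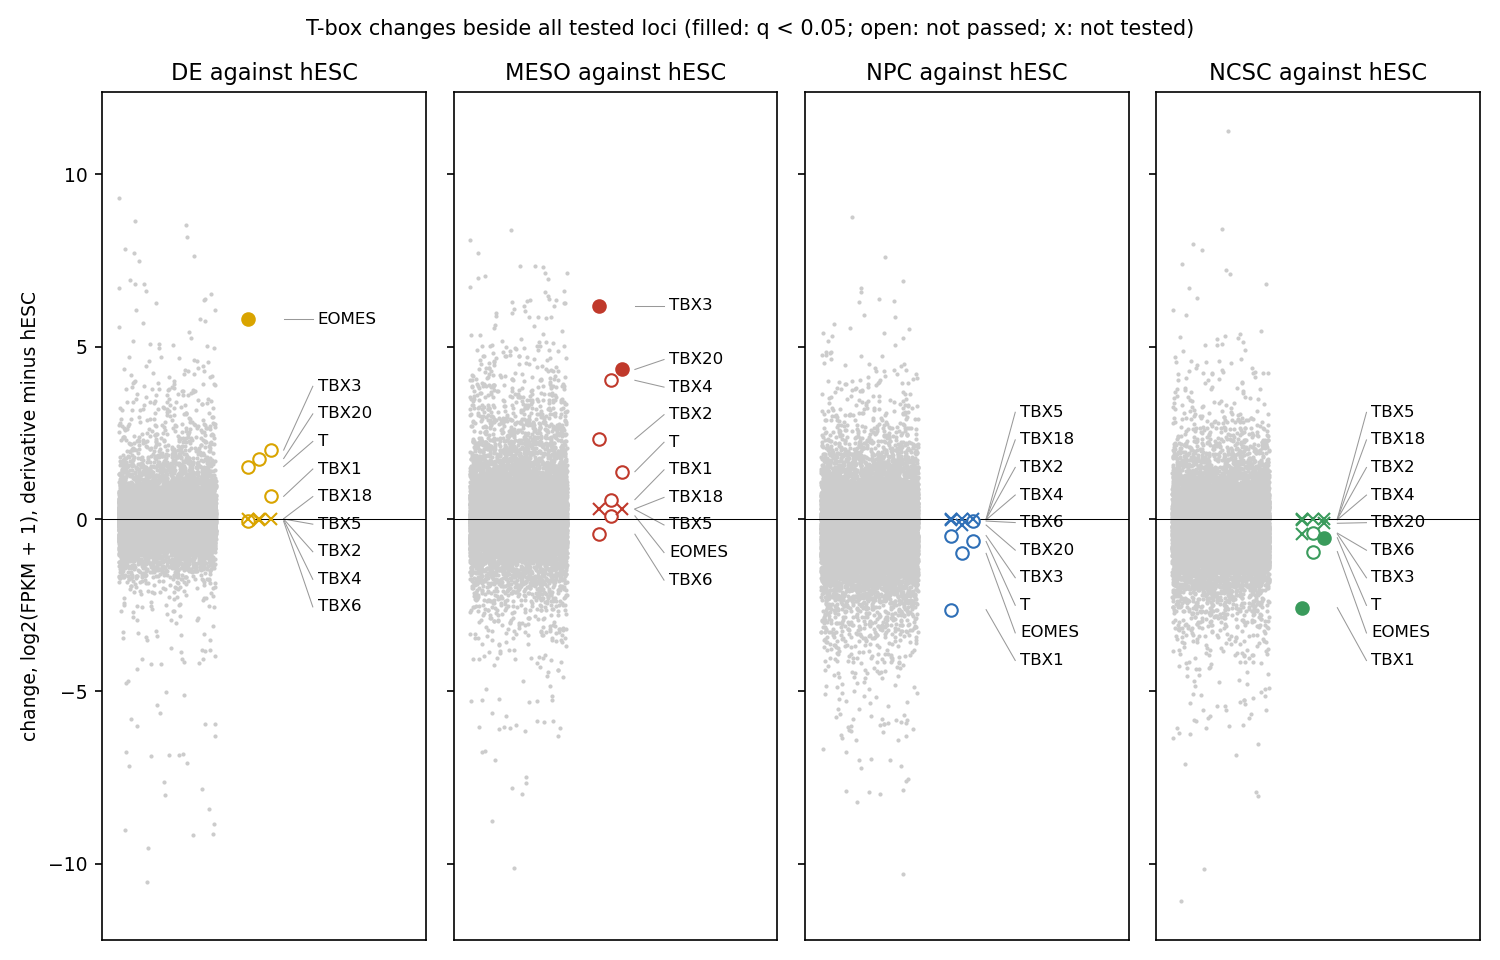
Change of each T-box gene, log2(FPKM + 1) of the derivative minus hESC, beside all tested loci in grey, 1 panel per derivative, with filled circles for q below 0.05, open circles for genes that did not pass and crosses for genes not tested. EOMES at 5.80 in DE and TBX3 at 6.19 in MESO stand highest, and TBX1 at -2.63 in NPC and -2.57 in NCSC lowest.

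In NPC, where activin and BMP receptors were inhibited, 9 of the 10 genes were lower than in hESC and TBX5 was listed at 0 in both. Relative to the median change of expressed loci 4 were lower (T, EOMES, TBX1 and TBX3) and 6 higher. Of the 6, TBX2, TBX4, TBX5 and TBX18 were at or below 0.0230 FPKM in both NPC and hESC. Their centred values are nearly the subtracted median alone and show no rise. TBX20 was also lower in NPC, at 0.0150 FPKM against 0.145 in hESC, and its centred value of 0.10 shows no rise either. None of the 5 tested passed the authors' q, and 1, T, had an unadjusted p below 0.05. Among all tested loci of that comparison, 12.0% rose and 24.8% fell, 36.8% in all, and the median change of loci reaching 1 FPKM in NPC or hESC was -0.27. TBX1 was 0.0416 FPKM in NPC and 5.44 in hESC, 131 times as high in hESC, a change of -2.63 (statistic -3.20, p = 0.239, q = 0.350 in the authors' deposited table). EOMES was 0.0147 FPKM in NPC and 1.02 in hESC, a change of -0.995 (statistic -2.78, q = 0.308 in the authors' deposited table). Adjusted normal p-values from the statistic called these 2, in place of none, with 22.5% called of the 14650 tested loci that had a statistic. Of 721 loci within 0.25 of the statistic of TBX1 in size 45 were not called, and of 996 within 0.25 of that of EOMES 65 were not. Both sets of loci include the T-box gene itself.

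T was 0.0257 FPKM in NPC and 0.609 in hESC, a change of -0.65 (p = 0.0240, q = 0.0676 in the authors' deposited table). TBX3 was 0.00436 FPKM in NPC and 0.399 in hESC, a change of -0.48 (q = 0.311 in the authors' deposited table). TBX20 was 0.0150 FPKM in NPC and 0.145 in hESC and was not tested. TBX6 was 2.54 FPKM in NPC and 2.68 in hESC (q = 0.905 in the authors' deposited table), inside the range of the hESC columns. Its change of -0.06 became 0.21 relative to the median of expressed loci. TBX2 and TBX18 were listed at 0 in NPC and TBX4 was 0.00671 FPKM. The median change was -0.12 over all 10 members, 5 of them not tested, and -0.65 over the 5 tested. Over all tested loci it was -0.25.

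In NCSC, where the activin receptor was inhibited and GSK3 blocked, TBX1 and T fell. TBX1 was 0.0332 FPKM in NCSC and 5.14 in hESC, 155 times as high in hESC, a change of -2.57 (statistic -3.22, p = 0.0028, q = 0.0148 in the authors' deposited table). Relative to the median change of loci reaching 1 FPKM in NCSC or hESC, which was -0.23, the change of TBX1 was -2.34. T was 0.0779 FPKM in NCSC and 0.570 in hESC, a change of -0.54, or -0.31 relative to that median (p = 0.0060, q = 0.0277 in the authors' deposited table). The call of T rested on levels below 1 FPKM in both cell types. It was lost with a minimum level of 1 FPKM, with a minimum log2 change of 1 and with adjusted normal p-values from the statistic. Each of these left 1 called member, and the last called 16.1% of the 14667 tested loci that had a statistic. Of the 4 members tested 2 fell, none rose and 2 did not pass, where among all tested loci 10.2% rose and 19.8% fell, 30.0% in all.

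EOMES was 0.0138 FPKM in NCSC and 0.950 in hESC, a change of -0.94 (statistic -2.63, p = 0.207, q = 0.365 in the authors' deposited table), close to its NPC values. TBX6 was 1.66 FPKM in NCSC and 2.53 in hESC, a change of -0.41 (q = 0.375 in the authors' deposited table). Its 2 close neighbours fell, YPEL3 to 5.61 FPKM in NCSC, against 18.8 in hESC, and PPP4C to 45.0 FPKM in NCSC, against 83.5 in hESC. TBX3 was 0.0190 FPKM in NCSC and 0.375 in hESC, and TBX20 was 0.0444 in NCSC and 0.137 in hESC, neither tested. TBX4 and TBX5 were below 0.01 FPKM in NCSC, and TBX2 and TBX18 were listed at 0. The median change was -0.27 over all 10 members, 6 of them not tested, and -0.74 over the 4 tested. Over all tested loci it was -0.22.

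TBX1 had almost the same values in NPC and NCSC, with 0.0416 and 0.0332 FPKM and statistics of -3.20 and -3.22, yet p was 0.239 in NPC and 0.0028 in NCSC in the authors' deposited tables. It is called in NCSC and not in NPC, and no test of a difference between the 2 derivatives was possible with 1 value for each.

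FPKM is scaled to transcript length, so levels of different members within a column can be added. The summed level of the 10 genes was 179 FPKM in DE, 156 in MESO, 2.64 in NPC and 1.86 in NCSC, against 9.73 to 10.3 in the hESC columns. EOMES made up 88.1% of the sum in DE, against 18.1% in hESC of that table. TBX3 made up 63.1% in MESO, against 3.49% in hESC, followed in MESO by TBX20 with 14.9% and TBX4 with 10.1%. TBX6 made up 95.9% in NPC, against 25.9% in hESC, and 89.2% in NCSC, against 26.0% in hESC. In NPC and NCSC no member other than TBX6 reached 0.1 FPKM.

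**Figure D4:**
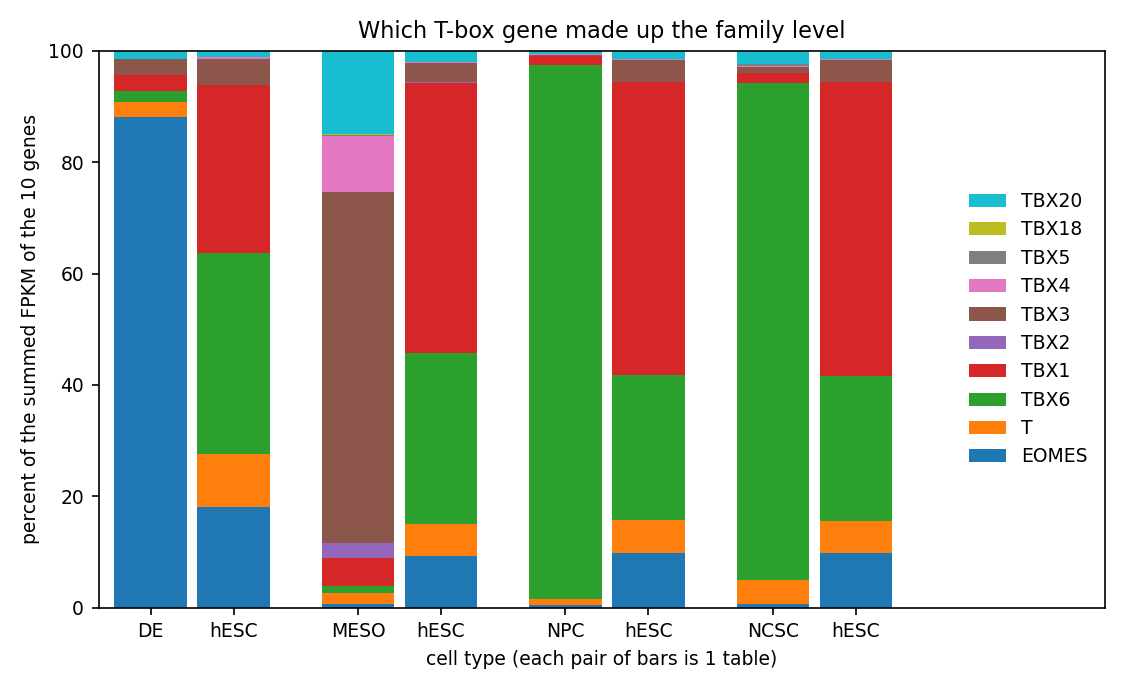
Share of each T-box gene in the summed FPKM of the 10 genes, in percent, with each derivative left of the hESC column of its own table. EOMES fills 88.1% of the DE bar, TBX3 63.1% of the MESO bar and TBX6 95.9% of the NPC bar and 89.2% of the NCSC bar, while TBX1 and TBX6 lead in hESC.

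Set in order across cell types, EOMES ran DE, MESO, hESC, NPC and NCSC from high to low, with MESO inside the spread of the hESC columns and NPC (0.0147 FPKM) and NCSC (0.0138) nearly level. T ran DE, MESO, hESC, NCSC and NPC, with each derivative outside the range of the hESC columns. TBX3 and TBX20 shared 1 order, MESO, DE, hESC, NCSC and NPC, again with each derivative outside that range. TBX1 ran MESO, DE, hESC, NPC and NCSC, with DE inside it. TBX6 was the flattest, with DE at 3.47 and NPC at 2.54 FPKM inside the hESC range and MESO at 2.04 and NCSC at 1.66 below it. These ranges compare columns of the same hESC libraries and are no replicate error.

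Of 21242 other genes listed alone at their locus in all 4 tables, those nearest in Euclidean distance over the 4 log2(FPKM + 1) changes were named for the 6 members with a change of at least 2 in size. For EOMES the nearest was SOX17, an endoderm transcription factor, at a distance of 0.73, with 141 FPKM in DE against 2.71 in hESC. RAE1 (1.13) and APOA2 (1.39) came next, but the place of RAE1 rests on the listed 0 in hESC given above. For TBX3 the nearest were GATA3 (0.69), MSX2 (1.31) and CRHBP (1.48), the first a transcription factor of ectoderm and trophoblast with 114 FPKM in MESO against 0.383 in hESC. For TBX20 they were ARHGAP29 (0.64), the receptor NRP1 (0.74) and BMPER (0.74), a secreted BMP-binding protein with 21.4 FPKM in MESO against 0.542 in hESC. For TBX4 they were LGALS16 (0.10), GCM1 (0.12) and CRH (0.14), with 16.8, 16.7 and 17.2 FPKM in MESO against 0.0482, 0.0241 and 0.0192 in hESC, and none of the 3 passed in MESO, as TBX4 did not. For TBX2 they were ART4 (0.02), BCAR4 (0.07) and DLX6 (0.11), between 3.97 and 4.06 FPKM in MESO, of which ART4 and BCAR4, listed at 0 in hESC, rose and DLX6 did not pass. For TBX1 they were TUSC1 (0.19), ZNF528 (0.39) and OSTF1 (0.42), and these 3 fell in NPC and NCSC.

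Of 7 other T-box genes, TBX10, TBX15, TBX19, TBX21, TBX22, TBR1 and MGA, 1 of 4 tested rose in NPC, 1 of 4 tested fell in NCSC, and none passed of 4 tested in DE and 3 in MESO. The shares over all tested loci were 12.0% rising in NPC, 19.8% falling in NCSC and, in either direction, 0.427% in DE and 14.4% in MESO. MGA, a large T-box protein that pairs with MAX, was the highest of them and fell in NCSC, at 4.09 FPKM against 9.64 in hESC (q = 0.000455 in the authors' deposited table), and was 7.33 in DE, 7.28 in MESO and 7.59 in NPC without passing. TBX22 rose in NPC at a low level, 0.487 FPKM against 0.0878 in hESC (q = 0.0377 in the authors' deposited table). TBX15 was 2.10 FPKM in NCSC and 0.00582 in hESC without passing (statistic 3.01, q = 0.392 in the authors' deposited table). TBX10 was highest in DE at 2.46 FPKM and TBX19 in NPC at 2.23. TBX21 reached 0.164 FPKM in hESC and TBR1 0.201 in DE at their highest.

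The genes around the T-box factors in gastrulation were read from lists, beside the shares called over all loci given above. Of 13 endoderm genes 8 rose in DE and none fell, of 12 tested, among them CXCR4 (176 FPKM in DE against 2.28 in hESC) and GATA6 (104 in DE against 1.44 in hESC). In MESO 4 of these rose and 3 fell, of 11 tested. LEFTY1 and LEFTY2, feedback inhibitors of NODAL, were among those that fell in MESO, at 0.816 FPKM against 19.6 in hESC and 2.43 against 14.4. Of 18 primitive streak and nascent mesoderm genes 2 rose in DE, FGF17 and LHX1, and none fell, of 15 tested. In MESO 6 rose and NODAL fell, of 18 tested, with APLNR, the apelin receptor, at 143 FPKM in MESO against 0.823 in hESC and EVX1 at 9.25 against 0.0631. MSGN1, a paraxial mesoderm factor downstream of TBX6 and WNT in mouse, rose in MESO at a low level, 0.943 FPKM with hESC listed at 0. In NCSC 4 of the streak genes rose and 2 fell, of 15 tested, with SP5, a WNT target, at 82.0 FPKM in NCSC against 0.885 in hESC. In NPC 1 rose, FGF8, and 5 fell, of 12 tested.

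Of 22 partners and targets of T-box factors in heart and lateral mesoderm, 11 rose and 3 fell in MESO, of 21 tested. HAND1, GATA4 (49.3 FPKM in MESO against 0.549 in hESC), ISL1 (32.2 against 0.246) and NKX2-5 (15.0 against 0.653) were among those that rose. Of the contractile genes MYL7 rose (12.2 FPKM in MESO against 1.63 in hESC), TNNT2 was 2.82 in MESO and 3.79 in hESC without passing, and MYH6 was 0.0785 in MESO and 0.0218 in hESC and was not tested. The channel gene HCN4 and the gap junction gene GJA1 were among those that fell in MESO. Of the same list 3 rose in DE, GATA6, GATA4 and MYL7, of 14 tested, 5 fell and none rose in NPC, of 12, and 5 fell and 1 rose in NCSC, of 13. Of 8 limb genes 3 rose in MESO, including FGF10 (10.3 FPKM in MESO against 0.0557 in hESC), a target of TBX4 and TBX5 in the mouse limb and lung. In NPC 3 of 5 tested limb genes also rose and none fell, with FGF10 at 0.956 FPKM in NPC against 0.0763 in hESC. In NCSC 2 rose and 2 fell, of 4 tested, and in DE 1 rose and none fell, of 6 tested. The 13 paraxial mesoderm genes found had 1 that rose and 2 that fell in MESO, of 6 tested, FOXC2 being the one that rose.

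Readouts of BMP and WNT signalling were counted in each derivative, with no test between derivatives. In MESO 10 of 12 BMP readouts rose (median change 3.99, no member lower past the test). None of 11 tested passed in DE, where 0.427% of all loci were called and the list's median change was 0.79, 4 fell and 2 rose in NPC, and 5 fell and 2 rose in NCSC. Of 9 WNT readouts 6 rose in MESO and none fell, 5 rose and none fell in NCSC, 2 rose and 4 fell in NPC, and none of 8 tested passed in DE. Of 6 growth arrest and adhesion genes that TBX2 or TBX3 are reported to repress in other cells, none fell in MESO and 3 rose, CDKN2B, CDKN1C and CDKN1A, the last at 103 FPKM in MESO against 33.5 in hESC. The rise was not particular to MESO, because CDKN1A (89.4 FPKM in NCSC against 33.0 in hESC) and CDKN1C (82.4 against 44.3) also rose in NCSC. In NPC CDKN1A fell, to 5.92 FPKM against 34.6 in hESC, and in DE none of the 6 passed. CDH1, the gene of E-cadherin and also on that list, fell in NPC, to 0.0631 FPKM against 89.6 in hESC, and in NCSC, to 0.823 against 83.6 in hESC.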

How the data were processed

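Poly-A RNA of 10 libraries was sequenced. The tools listed in the submitters' processing notes include Cufflinks 2.2.1, TopHat2 2.0.13, featureCounts and Subread 1.5.2, with hg19, but their roles are not given. The authors deposited 1 table per derivative, 4 in all, and each lists a single FPKM for the derivative and a single one for hESC, so libraries had been combined, and depth per library is unknown. The score is the authors' signed test statistic against hESC, and the p-value and q-value are the authors' own, per the file headers. A p of 1 together with a score of 0 was read as no test.

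Rows on chromosomes 1 to 22 and X were kept, gene cells were split at commas, and each symbol was represented by its row of highest mean FPKM. Changes used a pseudocount of 1 and calls a q below 0.05. Limma, blocked and leave-one-out fits need values per library and were not run. Adjusted normal p-values from the score, over the tested loci that had one, were an alternative. The steps, with Python 3.11.15, pandas 2.3.3 and scipy 1.17.1, were tested on simulated data. Every member was named. Likeness to other genes used the 3 nearest per member, and the rule for other lists was their counts and up to 3 called genes by size of change. Further list genes named were picked after their values were seen. Members, lists and tests were chosen with earlier results of these data known.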

Additional observations from a re-analysis of the deposited data

How the results depend on the processing

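No paired analysis was possible because the tables hold 1 value per cell type, and leaving out replicates could not be run for the same reason. The 5 called changes kept their sign under 6 alternatives each (pseudocounts of 0.1 and 5, quantile normalization, hESC values of the other 3 tables, centring on the median of expressed loci, summed rows). The pseudocount cannot turn a sign, and summed rows repeated the main value because each member had a single row. Only quantile normalization, the other hESC values and centring could therefore have turned one. The log2 ranges of the called changes were 4.57 to 6.34 for EOMES in DE, 4.27 to 7.76 for TBX3 and 2.44 to 6.30 for TBX20 in MESO, -5.30 to -1.01 for TBX1 and -1.91 to -0.13 for T in NCSC. With adjusted normal p-values from the statistic 4 members were called in MESO in place of 2, 2 in NPC in place of none, and 1 in NCSC in place of 2. In NCSC 1 was left with a minimum of 1 FPKM, and 1 with a minimum log2 change of 1. DE had 1 called member under each of the alternatives run. The cause of these differences was not tested.

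Of 240 alternative values of the 40 changes, 15 took the opposite sign, all of uncalled genes. The 240 include the pseudocounts and summed rows, which could not turn a sign. Centring gave 0.26 for TBX2, 0.25 for TBX4, 0.21 for TBX6, 0.27 for TBX18 and 0.10 for TBX20 in NPC, 0.22 for TBX2, 0.21 for TBX4, 0.22 for TBX18 and 0.11 for TBX20 in NCSC, and -0.038 for TBX18 in DE. It subtracts the same value from every change of a comparison, -0.27 in NPC, -0.23 in NCSC and 0.049 in DE. TBX2 and TBX18 were listed at 0 in NPC and NCSC, so their centred values there are that shift and show no rise. TBX20 was 0.0150 FPKM in NPC against 0.145 in hESC and 0.0444 in NCSC against 0.137. Its positive centred values show no rise either. The hESC values of the other 3 tables gave 0.0082 for TBX2 and 0.24 for TBX6 in DE and -0.13 for EOMES in MESO. Quantile normalization gave 0.0034 for TBX2 in DE and 0.11 for TBX6 in NPC. Without depth, no limit can be set for genes listed at 0.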
